A study of Mus musculus with 6 samples.

Results

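The genes described here encode 9 subunits of the transcription factor AP-1: the Fos proteins (Fos, Fosb, Fosl1 and Fosl2), the Jun proteins (Jun, Junb and Jund), and the related factors Atf3 and Batf. They were taken by name, and every called peak that touched the gene or the 50 kb on either side of it was collected, for 9 of 21911 protein-coding genes. The windows were 102 to 148 kb long. Macrophages were grown from bone marrow of C57BL/6 mice in medium conditioned by L929 cells (BMDMs), and histone marks were mapped by CUT&RUN, in which a nuclease tethered to an antibody releases the marked chromatin for sequencing. One group of cells received lipopolysaccharide (LPS), a component of the bacterial outer membrane that activates macrophages, for 1 h, and the control group received PBS. Peak lists of H3K4me1 (monomethylation of histone H3 at lysine 4, a mark of enhancers) and H3K27ac (acetylation at lysine 27, found at enhancers and promoters in use) were analysed for either treatment. Each of the 4 lists came from 1 library, so no value has a replicate error, no test between treatments was possible, and every comparison is between single libraries.

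AP-1 is a dimer of proteins with a basic leucine zipper. Jun proteins pair with each other or with Fos proteins, Fos proteins need a Jun partner, and the dimers bind the short, nearly palindromic site TGANTCA. Fos, Jun, Fosb and Junb are textbook immediate early genes, whose transcription is switched on within minutes of a signal through kinases of the MAPK family without new protein synthesis. In macrophages, AP-1 acts beside NF-kappa B and the lineage factor PU.1 at enhancers of inflammatory genes, and Atf3 is itself induced by LPS and restrains part of that response.

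The lists held 73049 H3K4me1 peaks under LPS, 64758 H3K4me1 peaks under PBS, 4200 H3K27ac peaks under LPS and 52 H3K27ac peaks under PBS. The depths recovered from the peak values were 7010000, 6860000, 5660000 and 7210000 fragments, in the same order. They are estimates, that of the PBS H3K27ac library from 52 peaks. The control level implied by the values also differed between the H3K4me1 and the H3K27ac lists, and which control and scaling entered each call is not given in the sources used here. The part of depth and control in the difference between the H3K27ac lists was not tested. All 10 macrophage marker genes examined had H3K4me1 peaks in their windows in both lists, with a median of 7.57% of the window covered under LPS and 5.11% under PBS, beside medians over all genes of 1.24% and 0.84%. The median was 2.07% and 1.04% for 4 T cell markers, 0.849% and 0.443% for 3 B cell markers, 0.274% and 0.153% for 3 hepatocyte markers, and 0% and 0.0959% for 3 neuronal markers. An LPS H3K27ac peak lay in the window of 7 of 10 macrophage, 1 of 3 hepatocyte, 0 of 3 B cell and 0 of 3 neuronal markers. Of the T cell markers, 4 of 4 had an LPS H3K4me1 peak and 3 of 4 an LPS H3K27ac peak in the window, so that a peak in a window of this size does not mark a cell type.

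Of the 9 genes, 8 had an LPS H3K27ac peak in the window, 14 peaks in all, and none had one under PBS. Over all protein-coding genes, 27.7% had at least 1 such peak under LPS and 0.584% under PBS. The sequences under 7 of the 14 summits are shown because they carry the acetylation results below. They comprise the peaks at or near Fos, Fosb, Jun, Junb, Atf3 and Batf, and the strongest H3K27ac peak of any window. Each run is the GRCm38 plus strand from 100 bases before to 100 bases after the summit. Capitals mark a match to the AP-1 motif TGANTCA or to the kappa B consensus, and a run without capitals held neither these nor the other motifs searched.
Fos, downstream (chr12:85489030-85489230): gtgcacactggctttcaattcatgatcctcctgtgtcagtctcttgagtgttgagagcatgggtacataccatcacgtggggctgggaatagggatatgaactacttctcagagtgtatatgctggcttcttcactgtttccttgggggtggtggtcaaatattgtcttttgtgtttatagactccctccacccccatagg
Fosb, promoter (chr7:19310073-19310273): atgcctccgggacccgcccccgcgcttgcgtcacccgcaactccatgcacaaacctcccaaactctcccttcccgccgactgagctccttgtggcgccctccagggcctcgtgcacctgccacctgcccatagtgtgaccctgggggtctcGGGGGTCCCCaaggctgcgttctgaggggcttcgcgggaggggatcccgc
Jun, promoter (chr4:95052552-95052752): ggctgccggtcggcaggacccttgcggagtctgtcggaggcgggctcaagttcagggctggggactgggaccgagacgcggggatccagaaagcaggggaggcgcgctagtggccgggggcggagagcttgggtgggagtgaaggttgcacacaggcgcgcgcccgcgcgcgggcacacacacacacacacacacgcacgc
Junb, upstream (chr8:84981192-84981392): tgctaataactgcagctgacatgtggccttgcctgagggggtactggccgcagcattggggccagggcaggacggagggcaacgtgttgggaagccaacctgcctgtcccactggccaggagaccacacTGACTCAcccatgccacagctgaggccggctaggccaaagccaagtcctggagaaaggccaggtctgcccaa
Junb window, Asna1 promoter (chr8:85025333-85025533): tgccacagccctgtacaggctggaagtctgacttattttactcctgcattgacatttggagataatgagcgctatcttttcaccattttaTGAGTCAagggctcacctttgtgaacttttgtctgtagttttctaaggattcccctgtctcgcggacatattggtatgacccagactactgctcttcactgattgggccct
Atf3, intron (chr1:191197543-191197743): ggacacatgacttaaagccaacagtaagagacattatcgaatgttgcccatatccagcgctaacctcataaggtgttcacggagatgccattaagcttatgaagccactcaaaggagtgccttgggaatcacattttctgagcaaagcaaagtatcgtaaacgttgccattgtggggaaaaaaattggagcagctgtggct
Batf, intron (chr12:85705199-85705399): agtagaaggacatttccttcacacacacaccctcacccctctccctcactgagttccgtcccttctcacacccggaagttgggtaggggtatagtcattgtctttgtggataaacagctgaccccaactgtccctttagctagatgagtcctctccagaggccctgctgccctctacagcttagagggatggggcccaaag

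The Fosb promoter held a kappa B match, GGGGGTCCCC, and the region upstream of Junb held the AP-1 motif as TGACTCA. The Asna1 promoter in the Junb window held it as TGAGTCA. AP-1 motifs thus lay under 2 of the 14 summits (14.3%), against 6.4% of all 4200 LPS H3K27ac summits, and kappa B matches also under 2 of 14, against 3% of all. The other kappa B match, GGGACTCTCC, was at Jund, where the same 201 bases held the PU.1 core GAGGAA. No match to the cAMP response element TGACGTCA, to the C/EBP motif TTGCNNNAA or to the CArG box bound by serum response factor was present under any of the 14 summits. Both strands were searched, and none of these matches overlapped another. At counts this small, the shares of the 9 genes cannot be told from those of the list.

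**Figure D1:**
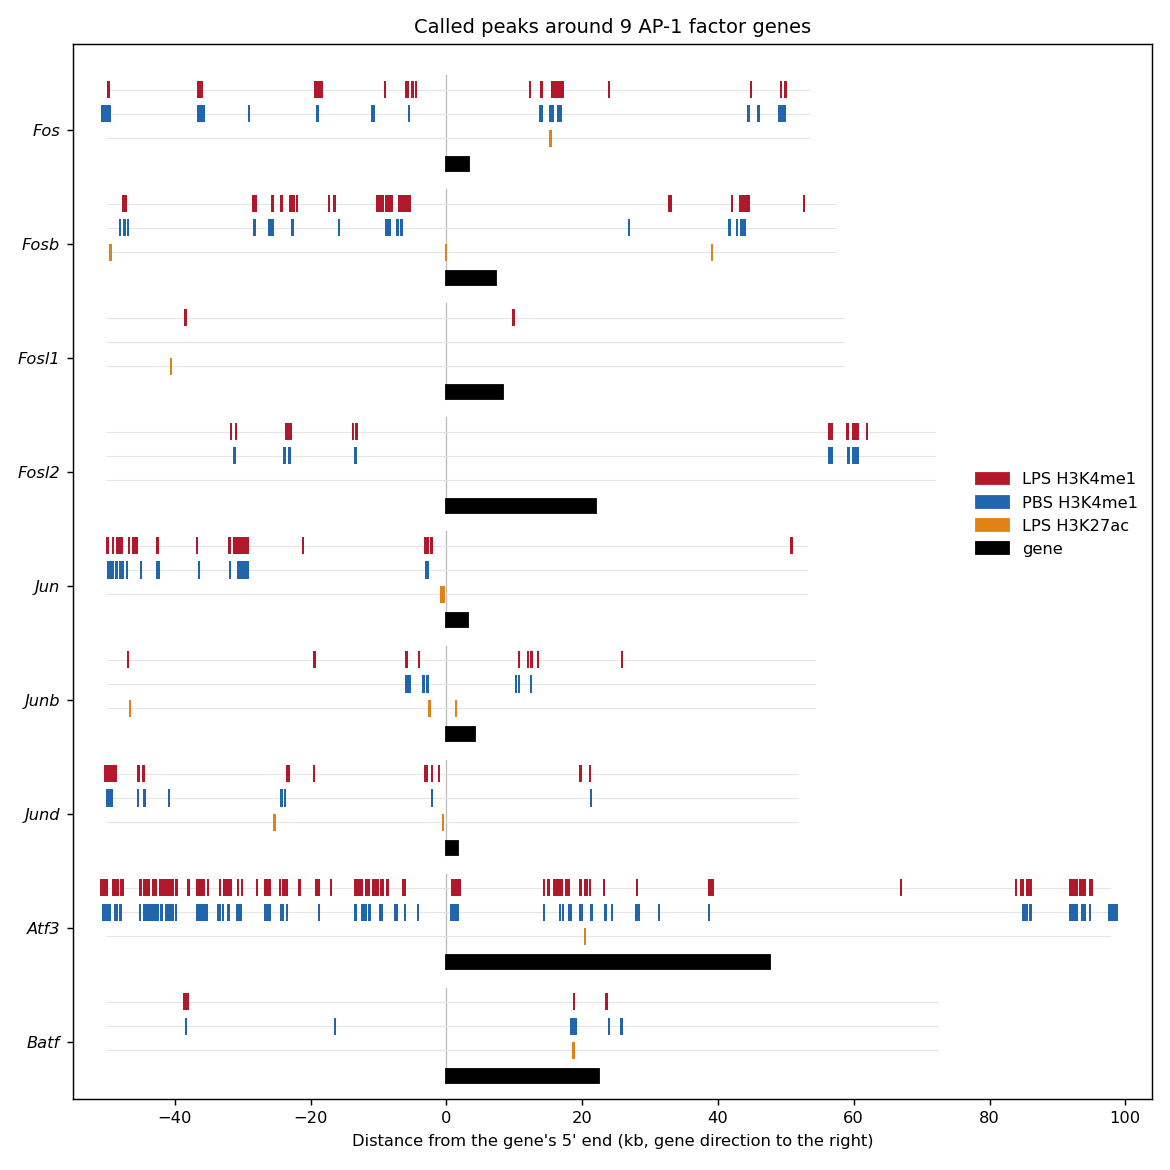
Called peaks in the windows of the 9 genes, against the distance in kb from the gene's 5′ end, with the gene reading to the right. Red, blue and orange boxes are LPS H3K4me1, PBS H3K4me1 and LPS H3K27ac peaks and the black bar is the gene, and narrow peaks are widened so that they can be seen. No PBS H3K27ac peak fell in any window. Atf3 has the most H3K4me1 peaks, 48 and 42, and Fosl1 has 2 under LPS and none under PBS.

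Acetylation at the genes' own promoters was found for 4 of the 9 genes under LPS, namely Fosb, Jun, Junb and Jund. A promoter is taken here as the 1 kb on either side of an annotated transcription start site (TSS), and 6.14% of protein-coding genes had an LPS H3K27ac peak there. At Fosb the summit was 122 bp upstream of the 5′ end, at chr7:19310140-19310260, with 14 fragments (exact 95% Poisson interval 7.65 to 23.5) over a local background of 3.01 fragments and a fold enrichment of 3.74. Jun had a pair of promoter peaks. The nearer was at chr4:95052592-95052727, 430 bp upstream, with 10 fragments (4.8 to 18.4) and a fold of 4.65. The farther was at chr4:95052946-95053120, 727 bp upstream, with 11 fragments (5.49 to 19.7) and a fold of 3.99. Both lay in an intron of Junos, the noncoding gene on the opposite strand, so that they cannot be assigned to either gene. These promoter peaks were among the weaker ones of the list. By −log10 q the Fosb peak ranked 3372 of 4200, and those of Jun ranked 3079 and 3640. No promoter peak of the 4 genes had a −log10 q of at least 5.

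The promoter calls of Junb and Jund depended on the annotation. The Junb peak, at chr8:84977301-84977438, had 15 fragments (8.4 to 24.7) and a fold of 4.56. It lay inside the gene, 1326 bp downstream of the 5′ end, with its summit in the annotated untranslated part, and counted as a promoter peak through a noncoding transcript that starts within the gene. The Jund peak, at chr8:70698295-70698449, had 11 fragments (5.49 to 19.7) and a fold of 3.99. It lay 542 bp upstream of the 5′ end that GENCODE gives. RefSeq places the Jund start at position 70697739 of chromosome 8, and by that model the peak lay downstream of the start. With the RefSeq start sites, available for 8 of the 9 genes, Fosb, Jun and Jund had an acetylated promoter and Junb had none. The share of all protein-coding genes by RefSeq start sites was not computed.

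Fos itself, the founding member of the family, had no H3K27ac peak at its promoter. Its single peak lay 15.2 kb downstream of the 5′ end, in intergenic sequence at chr12:85489074-85489199, with 8 fragments (3.45 to 15.8) over a background of 0.636 and a fold of 5.5. Junb had a second peak of its own upstream, at chr8:84981227-84981391, 2574 bp from the 5′ end, with 19 fragments (11.4 to 29.7) over a background of 3.01. That peak ranked 808 of 4200 and was the strongest of those not at a start site. Atf3 and Batf each had 1 peak in an intron. The Atf3 peak, at chr1:191197510-191197750, had 8 fragments (3.45 to 15.8) and a fold of 5.08, and it lay 20.4 kb inside the gene and 14303 bp upstream of the start of the shorter transcripts. The Batf peak, at chr12:85705202-85705628, had 13 fragments (6.92 to 22.2) and a fold of 4.66, and it lay 18.6 kb inside the gene. Batf encodes a factor that lacks a transactivation domain and pairs with Jun proteins and IRF factors in lymphoid and myeloid cells.

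The remaining 5 peaks lay at start sites of neighbouring genes. Fosl1, which encodes Fra-1, had 1 peak in its window, at chr19:5406831-5407006, at the start of the noncoding gene 4930481A15Rik and 40.6 kb from Fosl1. The Fosb window also held a peak at the start of Vasp, an actin regulator, with 13 fragments (6.92 to 22.2), and a peak between the starts of Cd3eap and Ppp1r13l, with 9 fragments (4.12 to 17.1). In the Jund window a peak with 11 fragments (5.49 to 19.7) lay at the start of Lsm4, a component of RNA processing complexes. The strongest of all 14 was at chr8:85025319-85025478, 152 bp from the start of Asna1, which encodes an ATPase that delivers tail-anchored proteins to the endoplasmic reticulum. It had 21 fragments (13 to 32.1) over a background of 0.713, a fold of 12.8 and a −log10 q of 18.1, and it ranked 10 of 4200. When peaks at the promoters of other protein-coding genes were left out, a setting chosen after the data were seen, 10 peaks remained and 8 of the 9 genes still had at least 1. By that count, 19.0% of all protein-coding genes had one. Fosl1 stayed among the 8 only because its peak is at the start of a noncoding gene, which this setting does not remove. Fosl2, which encodes Fra-2, had no H3K27ac peak in its window.

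**Figure D2:**
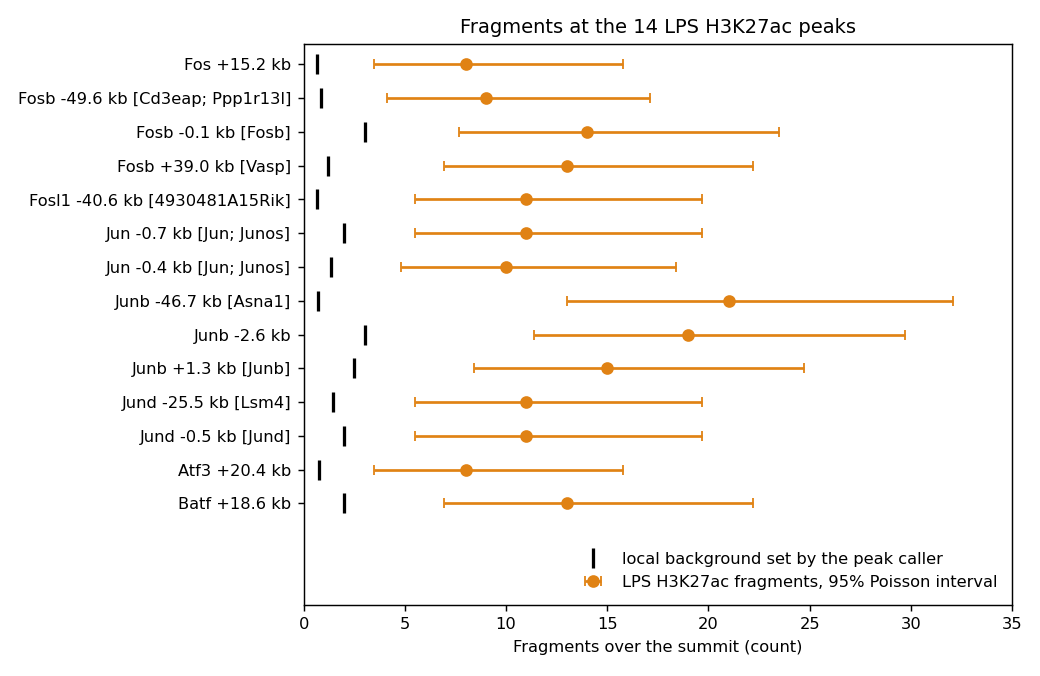
Fragments over the summit of the 14 LPS H3K27ac peaks in the windows of the AP-1 factor genes, labelled by gene, distance from its 5′ end and, in brackets, the gene whose start lies within 1 kb. Points are counts with their exact 95% Poisson intervals and black ticks are the local background; the counts run from 8 to 21, and all 14 intervals lie above their background, which the peak caller required.

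The acetylation calls rested on few fragments, from 8 to 21 at the summit, over a local background of 0.636 to 3.01. The list as a whole had a median background of 0.606 fragments, at 1.01 for the 1302 summits within 1 kb of a coding TSS and 0.502 for the other 2898. Of the 14 peaks, 5 ranked in the stronger part and 9 in the weaker part of the list, and 4 had a −log10 q of at least 5. The median fold enrichment was 4.97 for the 14 and 5.36 for the list. Peak lists hold no signal below the calling limit. A site that gained acetylation therefore cannot be told from one just under that limit in the PBS library. The distance to the nearest PBS H3K27ac peak ran from 1.78 Mb for Fos to 48.9 Mb for Fosl1. Fosb and Junb had 3 peaks each, a number reached by 4.21% of protein-coding genes.

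H3K4me1, in contrast, was listed around 8 of these genes in unstimulated cells. Under PBS, 8 of the 9 genes had at least 1 peak in the window (70.6% of all genes), with 105 peaks in all, and under LPS all 9 did (74.1%), with 125. The median number per window was 10 under LPS and 8 under PBS, against 4 and 3 over all protein-coding genes. By gene, the LPS and PBS counts were 14 and 12 for Fos, 16 and 15 for Fosb, 2 and 0 for Fosl1, and 10 and 7 for Fosl2. They were 13 and 10 for Jun, 9 and 6 for Junb, and 10 and 8 for Jund. Atf3 had 48 and 42, and Batf had 3 and 5. The LPS list was the longer in 8 of the 9 windows, Batf being the exception, and it was also the longer list genome-wide.

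**Figure D3:**
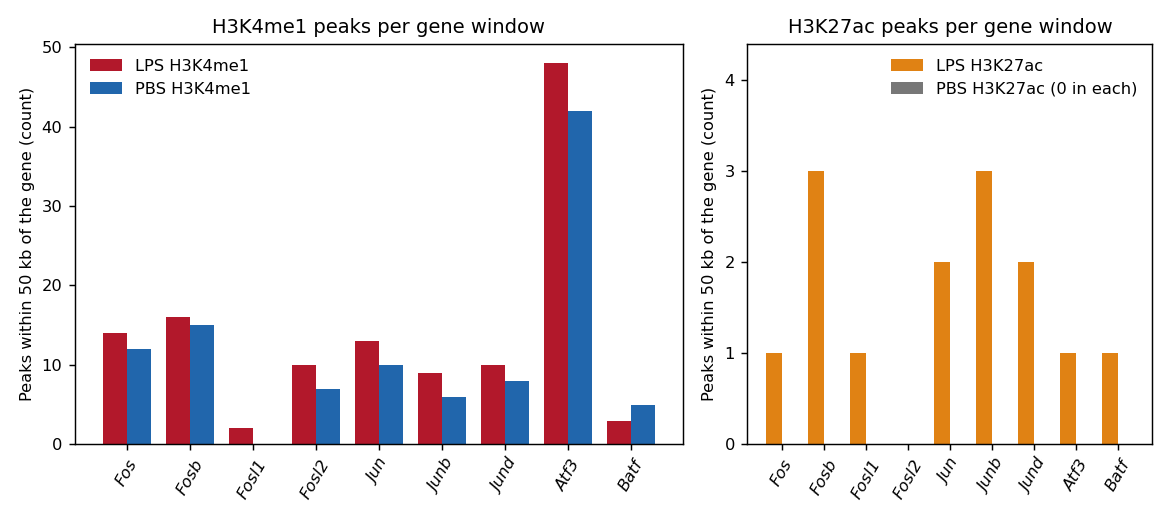
Number of called peaks within 50 kb of each of the 9 genes, H3K4me1 on the left and H3K27ac on the right, with 1 bar per library. Atf3 stands far above the other genes for H3K4me1, at 48 and 42 peaks, and for H3K27ac the PBS bars are at 0 throughout.

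Atf3, a repressor or activator depending on its partner, had the highest H3K4me1 content of the 9 windows. Peaks covered 20.4% of its window under LPS and 16.7% under PBS, and 99.8% of protein-coding genes had a lower share in either list. The peaks lay on both sides of the upstream start site and through the gene, with 29 upstream, 11 inside and 8 downstream under LPS. The strongest LPS peak was at chr1:191253552-191254913, 36.6 kb upstream, with 42 fragments (30.3 to 56.8), a fold of 15.7 and rank 582 of 73049. The strongest PBS peak was at chr1:191248110-191249013, 30.8 kb upstream, with 43 fragments (31.1 to 57.9), a fold of 15.2 and rank 285 of 64758. Both had a counterpart in the other list. Part of this window is shared with that of Batf3, another AP-1 family gene, which lies downstream of Atf3. Among the Fos genes, Fosb had 9.73% of its window covered under LPS and 4.38% under PBS, and Fos had 7.33% and 6.84%. Jun had 7.63% and 5.57%, Jund 4.59% and 3.07%, Fosl2 3.42% and 3.13%, and Junb 2.21% and 2.1%. At the lower end were Batf, with 0.925% and 1.71%, and Fosl1, with 0.737% and 0%.

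In several windows the strongest H3K4me1 peak stood at the same place in both lists. At Jun, the peak 29.8 kb upstream, in an intron of Junos, was 2280 bp wide with 36 fragments (25.2 to 49.8) under LPS, and 1665 bp wide with 28 fragments (18.6 to 40.5) under PBS. It was the strongest in the window in either list, ranking 974 of 73049 and 4812 of 64758. At Jund the strongest peak was 45.3 kb upstream in both lists, in an intron of the neighbouring gene Pgpep1, with 21 fragments (13 to 32.1) under LPS and 18 (10.7 to 28.4) under PBS. At Batf it was 38.6 kb upstream under LPS, with 15 fragments (8.4 to 24.7), and 38.4 kb upstream under PBS, with 22 (13.8 to 33.3). These fragment counts are as recovered, with no scaling for depth or control, and their intervals overlapped at each of these sites. Within their lists, the Jund peaks ranked only 20599 under LPS and 20473 under PBS, and the Batf peaks 34143 and 18576.

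Elsewhere the strongest peak stood at a different place in each list. Of these strongest peaks, only the LPS peak at Junb had no counterpart in the other list. At Fosb the strongest LPS peak was the one nearest the gene, 6.7 kb upstream, 1840 bp wide, with 36 fragments (25.2 to 49.8) and rank 1745 of 73049. The PBS peak at that place was 249 bp wide with 17 fragments (9.9 to 27.2) and rank 46040 of 64758. The strongest PBS peak of the Fosb window lay farther out, 25.7 kb upstream, with 29 fragments (19.4 to 41.6), and the LPS peak there also had 29. A second broad peak, 9.96 kb upstream of Fosb and 1234 bp wide, had no overlapping PBS peak. At Fos the order was the other way round: the strongest PBS peak, 49.8 kb downstream at the edge of the window, had 29 fragments (19.4 to 41.6) and rank 1612, and a PBS peak 10.7 kb upstream with 23 fragments (14.6 to 34.5) had no LPS counterpart. The strongest LPS peak of the Fos window was 18.8 kb upstream, with 29 fragments (19.4 to 41.6) and rank 11914. A PBS peak of 13 fragments (6.92 to 22.2) overlapped it. The LPS peaks overlapping the strongest PBS peak of that window had 21 fragments (13 to 32.1) each. At Fosl2 the strongest LPS peak was 22.9 kb upstream, with 27 fragments (17.8 to 39.3), and the strongest PBS peak 60.3 kb downstream, with 28 (18.6 to 40.5). A PBS peak of 28 fragments (18.6 to 40.5) overlapped the former, and an LPS peak of 21 (13 to 32.1) the latter. At Junb the strongest LPS peak, 19.4 kb upstream in Hook2, had 19 fragments (11.4 to 29.7) and no PBS counterpart. The strongest PBS peak, 10.7 kb downstream in Rnaseh2a, had 17 fragments (9.9 to 27.2), and the LPS peak there also had 17.

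The length covered by H3K4me1 peaks was at least 1.5 times longer under LPS in 1 of the 8 windows with peaks in both lists, that of Fosb, with a ratio of 2.23. This limit was passed by 38.8% of the 15098 protein-coding genes with peaks in both lists. It was at least 1.5 times shorter in the Batf window, with a ratio of 0.54, as in 5.39% of those genes. The ratio was 1.49 for Jund, 1.37 for Jun, 1.22 for Atf3, 1.09 for Fosl2, 1.07 for Fos and 1.05 for Junb. The median over all genes was 1.34 with quartiles of 1.07 and 1.78, and 3 of the 8 genes, Jund, Jun and Fosb, lay above it. The count of 1 depended on the settings, as Jund passed the limit in 3 of 5 alternatives, with ratios of 3.15, 1.64 and 1.58, and Jun, Fos and Junb in 1 each, with 1.59, 9.43 and 3.49. The ratios of Fos, Fosl2 and Junb fell on either side of 1.

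**Figure D4:**
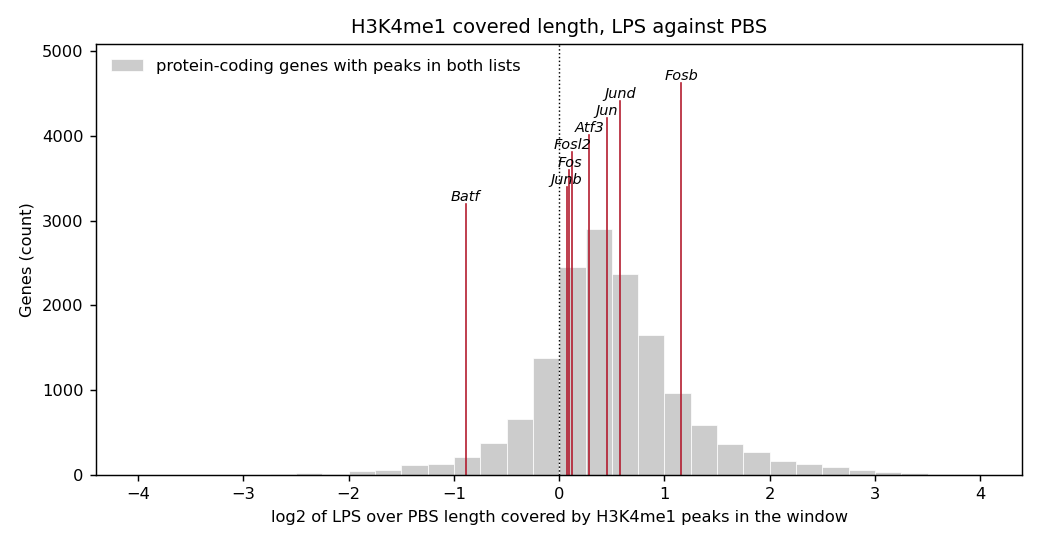
Histogram of the log2 ratio of LPS to PBS length covered by H3K4me1 peaks in the window, in bins of 0.25, for the 15098 protein-coding genes with peaks in both lists. Red lines mark 8 of the AP-1 factor genes, at heights that only keep the names apart; Batf, at a ratio of 0.54, and Fosb, at 2.23, are the outermost, and the others lie close to the bulk of genes.

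Of the 125 LPS H3K4me1 peaks in the windows, 77 were overlapped by a PBS peak (61.6%, 95% Wilson interval 52.8 to 69.7%), and of the 105 PBS peaks, 77 were overlapped by an LPS peak (73.3%, 64.2 to 80.9%). The shares over the whole lists were 61.2% and 73.1%. Intervals cover counting error only. These shares were raised by Atf3, for which 37 of 48 LPS peaks (77.1%, 63.5 to 86.7%) and 37 of 42 PBS peaks (88.1%, 75 to 94.8%) had a counterpart. For the other 8 genes the shares were 40 of 77 (51.9%, 41 to 62.7%) and 40 of 63 (63.5%, 51.1 to 74.3%).

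At the promoters the marks were arranged differently. By the GENCODE start sites, Atf3 was the only one of the 9 genes with an H3K4me1 peak within 1 kb of a TSS, under LPS and under PBS, beside 32.1% and 23.7% of all protein-coding genes. These peaks lay just inside the gene, at chr1:191215858-191217354 under LPS with 28 fragments (18.6 to 40.5), and at chr1:191216177-191217538 under PBS with 22 (13.8 to 33.3). None of the 4 genes with an acetylated promoter had an H3K4me1 promoter peak in either list, whereas 34.1% of the 1346 genes with an LPS H3K27ac promoter peak had none. These calls turned on the start site used. By the RefSeq start sites Jund was the one gene of 8 with an H3K4me1 promoter peak, in both lists, and Atf3, whose RefSeq start lies 34706 bp from the GENCODE 5′ end, had none. Shares of all protein-coding genes by those start sites were not computed. The nearest edge of an H3K4me1 peak upstream of the Jun genes was 2191 bp from the 5′ end of Jun, 3860 bp from that of Junb and 1142 bp from that of Jund under LPS. Under PBS these distances were 2489, 2549 and 1943 bp. Inside the genes, no H3K4me1 summit was listed for 7 of the 9, all but Atf3 and Batf, in either list. Over all protein-coding genes the share without one was 57.3% under LPS and 63.1% under PBS. Gene length sets how much room there is for a summit. Beside a median of 17.4 kb over all protein-coding genes, 6 of the 9 were shorter, from 1.67 kb for Jund to 8.4 kb for Fosl1, and Fosl2 (22.0 kb), Batf (22.4 kb) and Atf3 (47.7 kb) were longer. Their part in the count was not tested.

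The acetylated sites were also compared with H3K4me1. Of the 14 LPS H3K27ac peaks, 4 shared at least 1 bp with an H3K4me1 peak of either treatment (28.6%, Wilson interval 11.7 to 54.6%), against 39.3% of the whole list. The Batf intron was marked in both H3K4me1 lists. A PBS peak of 1099 bp spanned the acetylated summit, and an LPS peak of 177 bp began just past that summit, within the acetylated peak. The Fos downstream site and the Junb upstream site overlapped a PBS H3K4me1 peak. An LPS H3K4me1 peak began 58 bp from the Fos site, and the nearest to the Junb site was 1187 bp away. The Atf3 intronic site overlapped an LPS peak, and a PBS peak lay 131 bp from it. At the promoters no peak was overlapped, and the distances varied. From the Fosb promoter peak the nearest H3K4me1 peak was 5029 bp away under LPS and 6343 bp under PBS, from the nearer Jun peak it was 1686 bp and 1984 bp, and from the Jund peak it was 488 bp and 1289 bp.

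The motif content of the H3K4me1 summits in these windows was near that of the lists. The AP-1 motif lay within 100 bases of 8% of the 125 LPS summits and of 9.94% of all LPS summits, and under PBS of 9.52% and 9.46%. The PU.1 core was present at 24% against 25.9% under LPS and at 30.5% against 27.1% under PBS. Kappa B matches were found at 3.2% against 2.67% under LPS and at 6.67% against 2.49% under PBS, the latter from 7 of 105 peaks. In the RefSeq promoters (250 bases before to 50 after the start, GRCm38), which were found for 8 of the 9 genes, kappa B matches were present in 3, those of Fos, Fosb and Fosl2, and in 4.51% of all 32851 promoters. The Fosb match is the same GGGGGTCCCC as the one under its H3K27ac summit. With only 8 promoters, the difference in share was not tested. None of the 8 held TGANTCA, which was present in 7.81% of all promoters.

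Other genes of the family and of the pathway above it were read from lists of 12 and 18 genes. Of the 12 other genes of the AP-1 and Maf families, 12 had an LPS and 11 a PBS H3K4me1 peak in the window, and 4 had an LPS H3K27ac peak, namely Atf4, Atf7, Mafg and Nrl. Of these, Atf7 had one at its own promoter, with 13 fragments. Of 18 kinases and transcription factors that act upstream of AP-1 genes, all 18 had H3K4me1 peaks in both lists, and 10 had an LPS H3K27ac peak. Among these, H3K27ac peaks were at promoters of Mapk9 (JNK2) and Map2k2 (MEK2), and within Elk4, Mapk14 (p38 alpha) and Map2k6 (MKK6). Map3k8 (Tpl2, a kinase that acts below LPS receptors) had its peaks in an intron, 17150 and 15515 bp downstream of the 5′ end. They counted as promoter peaks through an annotated start inside that gene. Elk1, Map2k1 and Map2k4 had their peak outside the gene or at a neighbour. Among the 8 with none were Srf, Elk3, Mapk3 and Mapk8 (JNK1). None of these 30 genes had a PBS H3K27ac peak in its window. The share with LPS acetylation was therefore 8 of 9 for the AP-1 factor genes, 4 of 12 for the other family members and 10 of 18 for the upstream genes, beside the 27.7% of all protein-coding genes given above. These counts include weak peaks and peaks at the starts of neighbours, the only kind in the Fosl1 window. With a −log10 q of at least 5, 3 of the 9 AP-1 factor genes had a peak. Among the upstream genes, Elk4, Map2k1, Map2k2 and Map3k8 had one at that limit. The highest −log10 q among the other family members was 4.59, at Atf4. The share of all protein-coding genes at that limit was not computed.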

How the data were processed

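Peaks of H3K4me1 and H3K27ac were taken from 4 CUT&RUN libraries of LPS- or PBS-treated BMDMs, grouped by their labels. Control IgG libraries enter only through the peak calls. Per the methods and the submitters' processing notes, reads were aligned to GRCm38 with Bowtie2 2.4.4, blacklisted regions were removed and peaks were called per library with MACS2 2.2.7.1, without pooling. The deposited lists give a score, which was not used, the fold enrichment at the summit (a ratio computed by the authors' peak caller with a pseudocount of 1), and the −log10 of the p-value and q-value, also the authors' own values. Fold and −log10 q depend on depth and control and were used to rank peaks within a list. Fragment counts and widths set side by side were not scaled.

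Members and gene lists were chosen with earlier results of these data known. Windows were the GENCODE M21 gene and 50 kb on either side, in the GRCm38 build of the files. A counterpart shares at least 1 bp, and promoters span 1000 bp around any TSS. Fragments at a summit and library depth were recovered from fold and p (tolerance 0.002 in −log10 p) with 1 scaling factor per list, matching 100% of peaks in 3 lists and 99.9985% in the PBS H3K4me1 list, on a procedure tested on simulated data. Depth rests on a genome size of 1870000000 and on the smallest peak width as fragment length. Poisson and Wilson intervals (95%) cover counting error only, and amplified fragments need not be independent molecules. Sequences were read from the RefSeq copy of GRCm38 with pysam 0.24.0, and shares computed with Python 3.11.15, pandas 2.3.3 and statsmodels 0.14.6.

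Genes named were the 9 members, and others only where a named peak lay in them or at their start, or where a listed pathway gene had or lacked an H3K27ac peak. The values of 1 listed gene are not reported here. Peaks named were every H3K27ac peak in the windows and, per H3K4me1 list, the one nearest a TSS, the strongest and the strongest without a counterpart, of which the text gives a selection. The rule for sequences was the strongest H3K27ac peak of each window. Those at the starts of Vasp, 4930481A15Rik and Lsm4 were left out to shorten the set, whereas that of Asna1, also a neighbour, was kept as the strongest peak. The Fosb promoter and Junb upstream peaks were added after their values were seen. Alternatives were stricter limits on q or fold, other windows and promoter widths, merged peaks and other definitions of overlap.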

Additional observations from a re-analysis of the deposited data

How the results depend on the processing

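No paired analysis was possible because each treatment and antibody had 1 library. For the same reason no replicate could be left out. The PBS H3K27ac count was 0 in each setting, as it had to be with the nearest such peak 1.78 Mb away, and says nothing about stability. With a −log10 q of at least 5, the number of LPS H3K27ac peaks in the windows was 4, the number of genes with such a peak 3 and the number with a promoter peak 0. Those 4 peaks were the ones at the starts of Vasp, 4930481A15Rik and Asna1, which are neighbours, and the one upstream of Junb. With a fold enrichment of at least 5 the same 3 counts were 6, 5 and 0. Shares of all protein-coding genes were not computed at either limit. With windows of 10 kb and 100 kb around the gene there were 8 and 24 LPS H3K27ac peaks, 38 and 221 LPS H3K4me1 peaks, and 31 and 180 PBS H3K4me1 peaks. A −log10 q of at least 5 left 83 LPS and 62 PBS H3K4me1 peaks, and merging peaks within 1000 bp left 73 and 67. With 2500 bp around the TSS, 3 genes had an H3K4me1 promoter peak under LPS and 3 under PBS. The shares of all protein-coding genes at that width were not computed. The share of LPS H3K4me1 peaks with a PBS counterpart was 24.8% when at least 50% of both peaks had to overlap, 78.4% when peaks could lie 500 bp apart, and 75.9% for LPS peaks with a −log10 q of at least 5. For PBS peaks with an LPS counterpart these were 29.5%, 87.6% and 90.3%. The share of LPS H3K27ac peaks overlapped by H3K4me1 was 42.9% when peaks could lie 500 bp apart and 25% for H3K27ac peaks with a −log10 q of at least 5. It was 0% when at least 50% of both peaks had to overlap. That last setting is hard to meet, as the H3K27ac peaks had a median width of 161 bp and the LPS and PBS H3K4me1 peaks 404 and 370 bp. Why these values moved was not tested beyond what each limit removes. The Batf ratio stayed below 1, between 0.222 and 0.666, and the Fosb ratio above 1, between 1.69 and 3.15, in every setting tried, whereas those of Fos (0.992 to 9.43), Fosl2 (0.661 to 1.26) and Junb (0.688 to 3.49) fell on either side of 1. Jund, at 1.49, ran from 1.24 to 3.15 and was above 1.5 with windows of 10 kb (3.15) or 100 kb (1.64) and with merged peaks (1.58). Jun, at 1.37, ran from 1.34 to 1.59 and was above 1.5 with merged peaks. The promoter definitions based on RefSeq or on protein-coding transcripts and the removal of peaks at other genes' promoters were chosen after seeing the data. Either of the TSS definitions left 3 genes with an acetylated promoter, and the shares of all protein-coding genes by these definitions were not computed. The removal left 10 LPS H3K27ac peaks around 8 genes, among them Fosl1 through a peak at the start of a noncoding gene.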
